A study of Mus musculus with 12 samples.

Results

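Interferon-stimulated genes are the genes that cells switch on when interferon binds its receptor. The set described here holds 39 of them, chosen by name out of 54115 annotated genes, and it was followed across eosinophils sorted from the blood and from 2 white fat depots of mice. In the classical pathway, a type I interferon engages the receptor chains IFNAR1 and IFNAR2, JAK kinases phosphorylate STAT proteins, and a complex that holds STAT2 and IRF9 binds a DNA motif called the interferon-stimulated response element. Interferon gamma uses its own receptor, and it drives mainly GTPases, IRF1 and antigen presentation genes. Eosinophils are granulocytes of allergic and antiparasitic responses that also reside in fat.

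The 12 libraries came from 5 males of the strain FVB/NJ, wild type and untreated, which ate chow and were 20 weeks old. Blood was taken from mice 2807, 2771, 2683 and 2668, gonadal white adipose tissue from mice 2846, 2807, 2683 and 2668, and subcutaneous white adipose tissue from mice 2846, 2807, 2771 and 2668. Fat was digested with 1 mg/mL collagenase type II at 37 C for 45 min, and no digestion is given for blood, so tissue and digestion cannot be told apart. Live cells positive for CD45, CD11b and Siglec-F were collected in every group, with no treatment or mutation in any of them.

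Libraries held 12477671 to 23734940 estimated reads, except the subcutaneous library of mouse 2846 with 4379954, where mitochondrial ribosomal RNA took 28.0% of reads against 4.64% to 8.74% elsewhere. Of the genes that define the sorted cells, Siglecf stood at 149 to 524 CPM (read counts scaled to library size) over all libraries, whereas the granule protein genes Prg2 and Epx stayed below 7.7 CPM throughout. Ccr3 was at 1526 ± 128 CPM (SD, n = 4) in blood, 725 ± 245 CPM in gonadal and 704 ± 340 CPM in subcutaneous fat. Of the sort markers, Ptprc (CD45) was at 3968, 2120 and 2202 CPM and Itgam (CD11b) at 1905, 986 and 920 CPM in those groups. In each depot 2 of 3 sort markers and 4 of 11 eosinophil markers were called lower than in blood. Markers of other cells differed between the groups. The summed level of 12 macrophage markers was 320 to 645 CPM in blood, 809 to 2394 CPM in gonadal fat and 938 to 3182 CPM in subcutaneous fat. That of 10 monocyte markers was 111 to 1978 CPM in blood, highest in mouse 2807, 2061 to 7624 CPM in gonadal fat and 1729 to 2223 CPM in subcutaneous fat. Much of that sum in fat is Nr4a1, an immediate-early gene (21.0, 1075 and 1221 CPM on average), and in gonadal fat Fn1 (519, 2819 and 251 CPM), and 5 of the 10 genes had a negative log2 fold change in gonadal and 6 in subcutaneous fat (medians -0.15 and -0.61). The 10 neutrophil markers summed to 2552 to 4074 CPM in blood, 193 to 421 CPM in gonadal and 179 to 699 CPM in subcutaneous fat, and 7 of the 8 tested were called lower in each depot. Of 7 B cell markers 6 were lower in gonadal and 0 in subcutaneous fat (115.6 to 453 CPM in blood, 29.1 to 94.0 CPM and 43.7 to 200.6 CPM in fat). Of 8 fibroblast and progenitor markers 6 were higher in each depot, with a sum of 4139 CPM in the subcutaneous library of mouse 2846 and 137 to 498 CPM in all others. The 18 genes of a list of early responses to tissue dissociation summed to 2643 to 3120 CPM in blood, 16380 to 21860 CPM in gonadal fat and 22220 to 29630 CPM in subcutaneous fat. The part of these cells and of digestion in the results below was not tested except where stated, and in bulk RNA fewer cells of a type and less RNA per cell cannot be told apart.

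The response element is shown first because it is the sequence through which many of these genes are switched on. Its core was searched as GAAA, any 2 bases and GAAA again on both strands, overlapping matches included, in RefSeq promoter windows of GRCm38.p6 that run from 250 bases before to 50 bases after a start site. A window was given for 30 of the 39 members, and 18 of them (60%) held the core, against 3.99% of all 27025 genes with a window. The stretches below are the 120 bases before the start site, with matches in capitals. They belong to a member that was higher in both depots (Isg15, while Oas2, also higher in both, has no window), a member that was lower in both with a match (Igtp), 2 antiviral genes that vary between libraries (Ifit1 and Rsad2), and the member with the most stable decrease, whose windows have no match (Irf9).
Isg15: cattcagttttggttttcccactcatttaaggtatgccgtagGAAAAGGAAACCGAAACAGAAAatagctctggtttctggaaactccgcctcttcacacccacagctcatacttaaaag
Igtp: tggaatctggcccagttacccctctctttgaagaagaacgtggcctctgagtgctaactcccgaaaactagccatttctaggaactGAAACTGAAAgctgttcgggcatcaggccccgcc
Ifit1: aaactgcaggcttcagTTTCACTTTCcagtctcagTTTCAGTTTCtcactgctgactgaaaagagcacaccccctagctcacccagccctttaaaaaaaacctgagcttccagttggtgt
Rsad2: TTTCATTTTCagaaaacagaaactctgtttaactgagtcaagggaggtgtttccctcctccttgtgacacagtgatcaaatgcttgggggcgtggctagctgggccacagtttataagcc
Irf9: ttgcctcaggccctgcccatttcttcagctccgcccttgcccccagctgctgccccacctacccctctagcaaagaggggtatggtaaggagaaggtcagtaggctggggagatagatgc

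The Isg15 stretch lies at chr4:156200819-156200938 on the minus strand and holds 3 overlapping matches, whose first bases are at -78, -72 and -66 from the start. The Igtp stretch (chr11:58199436-58199555, plus strand) has a match at -34. In the Ifit1 stretch (chr19:34640769-34640888, plus strand) matches begin at -104 and -85, read on the opposite strand. In Rsad2 (chr12:26456453-26456572, minus strand) the match begins at -120. The Irf9 stretch (chr14:55604459-55604578, plus strand) has none, which says only that these letters are not in the window. Members with a match had no common direction: of the 18, 2 were higher, 2 were lower and 14 did not pass the test in gonadal fat, and 1 was higher, 2 were lower and 15 did not pass it in subcutaneous fat. Of the 12 without a match, 2 were lower in each depot, 9 did not pass and 1 was not tested. Among all genes tested, 27.0% were called in gonadal and 26.8% in subcutaneous fat, and these counts are a description from which nothing is read.

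The members had no common direction in fat. Isg15 and Oas2 were higher in both depots, the transcription factor gene Irf9, the RNA sensor genes Ddx58 and Dhx58 and the GTPase gene Igtp were lower in both, and most classical antiviral genes (the Ifit and Mx genes, Rsad2) were low and variable in every tissue. Genes were tested with edgeR's quasi-likelihood test over 15367 genes with Benjamini-Hochberg adjustment and a threshold of 0.05, which gives every adjusted p below unless another tool is named. Of the 39 members 38 entered the test. Ifi44, with 6 reads over all 12 libraries, did not.

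In gonadal fat against blood, 3 members were higher (Isg15, Oas2, Ifih1) and 5 lower (Irf7, Irf9, Ddx58, Dhx58, Igtp), so 21.1% of tested members were called, against 27.0% of all genes tested (15.4% higher and 11.6% lower). Subcutaneous fat against blood gave 2 higher (Isg15, Oas2) and 5 lower (Irf9, Ddx58, Dhx58, Igtp, Cmpk2), or 18.4%, against 26.8% of all genes (15.4% higher and 11.4% lower). These shares rest on 8 and 7 calls among 38 members, and nothing is read from their distance to the shares of genes at large. Their median log2 fold change was -0.004 in gonadal fat, where that of all genes was 0.076, and 0.38 in subcutaneous fat, where that of all genes was 0.07. Both comparisons share the blood libraries. With the mouse as a block, 4 members were called in each comparison, 0 higher and 4 lower in gonadal fat (background 21.3%) and 1 higher and 3 lower in subcutaneous fat (background 18.9%). Fitting blood and subcutaneous fat alone lost the calls of Ddx58, Dhx58 and Igtp there. Dropping the filter on low counts lost Ifih1 in gonadal fat and Dhx58 and Igtp in subcutaneous fat, and limma-voom with sample weights lost Oas2 in gonadal and Dhx58 in subcutaneous fat. The same limma-voom fit gained 8 members in gonadal fat, for 15 in all (6 higher and 9 lower), where it called 42.5% of all genes. DESeq2 called 11 members in gonadal fat (5 higher and 6 lower), where it called 34.4% of all genes. The sort markers Ptprc and Itgam and the neutrophil markers were lower in the same comparisons as the members that fell (log2 fold changes of Ptprc -0.90 and -0.85, of Itgam -0.95 and -1.05), and their part in those decreases was not tested. Counting members whose fat and blood libraries did not overlap, 2 were higher and 7 lower in gonadal fat, where 18.6% and 17.7% of all genes did so. In subcutaneous fat 3 were higher and 5 lower, where 13.8% and 15.7% of all genes did so.

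**Figure D1:**
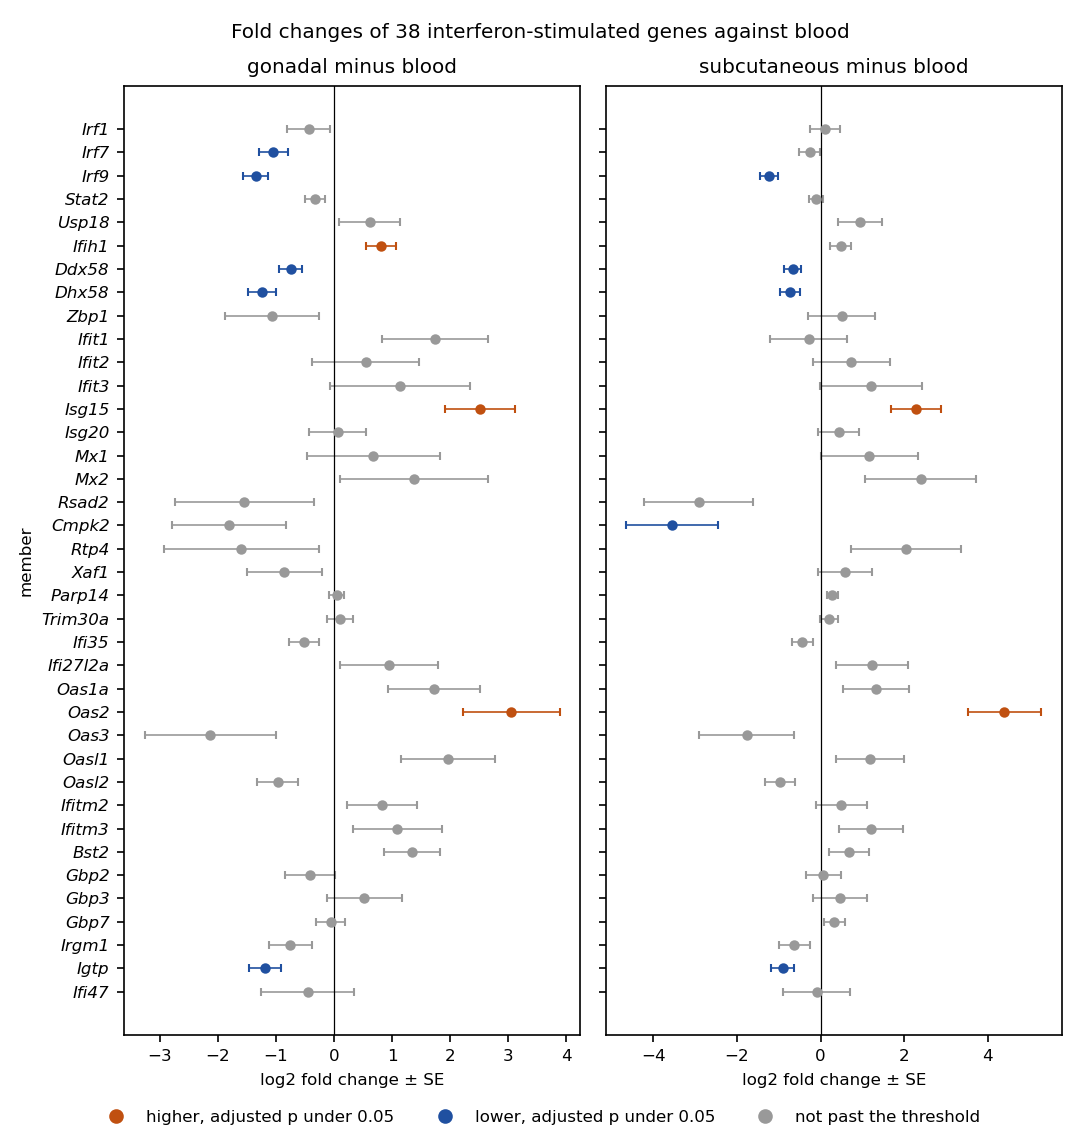
Log2 fold change with its standard error (horizontal axis) for the 38 tested members (vertical axis, ordered by role) in gonadal fat minus blood and subcutaneous fat minus blood, 4 libraries per group. Orange and blue points passed the test upward and downward: 3 and 5 members in gonadal fat, 2 and 5 in subcutaneous fat, and grey points lie on both sides of 0.

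**Figure D2:**
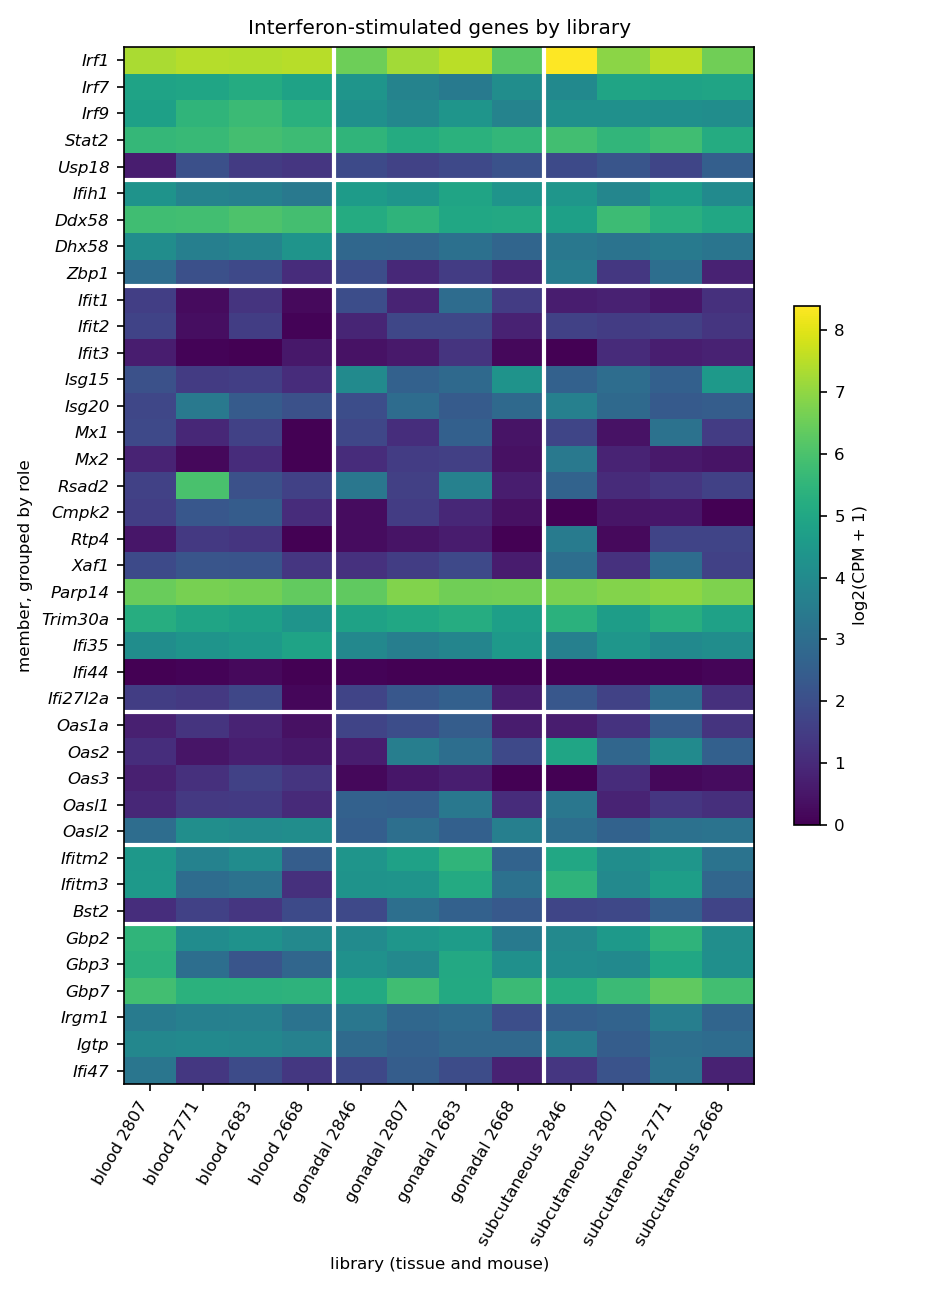
Level of each of the 39 members as log2(CPM + 1) (colour) in the 12 libraries (columns, by tissue and mouse), with white lines between tissues and between roles. Irf1 and Parp14 are bright in every column, the Ifit genes and Ifi44 are dark in every column, and Rsad2 is bright in the blood library of mouse 2771 alone.

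The levels differed widely between members. On the TPM scale, which corrects for length, Irf1, a transcription factor induced mainly by interferon gamma, led in blood with a mean of 43.8 TPM (range 29.9 to 52.7 TPM), followed by Stat2 at 11.4 TPM (8.34 to 13.4) and Ifitm2 at 9.73 TPM (3.47 to 19.2). The ranges of Stat2 and Ifitm2 overlapped, that of Irf1 stood apart. For Stat2, a retained-intron transcript had a mean of 3.59 TPM over all libraries, against 2.17 TPM for the main coding transcript. The coding transcript took 66.9% of Stat2 reads in blood, so the rank on the TPM scale is not that of coding RNA alone. Ddx58 (8.72 TPM), Parp14 (7.06 TPM) and Irf9 (7.05 TPM) came next and did not differ beyond their spread. At the low end of blood were Ifit3 (0.0647 TPM), Oas2 (0.0577 TPM) and Ifi44 (0.00423 TPM). Irf1 also led in gonadal fat (34.6 TPM) and subcutaneous fat (44.5 TPM), and Isg15 moved from rank 21 of 39 in blood (1.36 TPM) to rank 5 in gonadal fat (7.88 TPM).

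Among the regulators, Irf9 showed the decrease that held under every alternative tried. Irf9 (chr14:55603571-55610030, GRCm38, plus strand) encodes the subunit that directs STAT2 to the response element. In blood it stood at 26.4, 43.9, 52.2 and 39.2 CPM (mice 2807, 2771, 2683 and 2668, the order used for blood throughout). Gonadal values were 17.4, 13.9, 19.8 and 12.4 CPM (mice 2846, 2807, 2683 and 2668), and subcutaneous values were 17.7, 17.4, 17.1 and 16.4 CPM (mice 2846, 2807, 2771 and 2668). Every fat library lay below every blood library, and the 4 subcutaneous values were close together. The log2 fold change was -1.35 (SE 0.22, adjusted p = 0.000976) in gonadal and -1.24 (SE 0.22, adjusted p = 0.00182) in subcutaneous fat. Irf9 overlaps Rnf31 on the same strand, which had a mean of 726 reads per library against 425 for Irf9, so some reads may belong to either gene.

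Irf7, the factor that amplifies type I interferon production, was lower in gonadal fat. Irf7 (chr7:141262706-141266481, minus strand) was at 28.1, 29.7, 34.8 and 27.7 CPM in blood, at 19.7, 12.5, 10.1 and 16.2 CPM in gonadal fat and at 14.7, 28.8, 27.5 and 29.0 CPM in subcutaneous fat. Gonadal libraries lay below all blood libraries, while 2 of the 4 subcutaneous libraries lay within the blood range, that of mouse 2771 just below it and that of mouse 2846 further below. Its log2 fold change was -1.04 (SE 0.25, adjusted p = 0.00964) in gonadal fat, with an adjusted p of 0.0502 with the mouse as a block, and -0.26 (SE 0.25, adjusted p = 0.468) in subcutaneous fat. The direct contrast of the depots, 0.78 (SE 0.25), did not pass the test (adjusted p = 0.467). A transcript annotated as a retained intron took 39.8% of Irf7 reads in blood, 58.6% in gonadal fat and 48.0% in subcutaneous fat, and the main coding transcript took 43.3%, 27.6% and 25.02%. Phrf1, which overlaps Irf7 on the opposite strand, had a mean of 1652 reads per library against 380 for Irf7. The use of strand in counting is not stated in the labels, and the origin of shared reads is uncertain.

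Stat2, which acts together with IRF9, did not pass the test. It stood at 46.9, 49.3, 58.6 and 53.3 CPM in blood, 43.8, 35.1, 40.3 and 46.3 CPM in gonadal fat and 56.6, 44.8, 55.6 and 35.1 CPM in subcutaneous fat. All gonadal values lay below the lowest blood value, the highest of them just below it. Of the 4 subcutaneous values 2 lay within the blood range and 2 below it. The log2 fold changes were -0.33 (SE 0.17, adjusted p = 0.166) and -0.12 (SE 0.17, adjusted p = 0.638). Irf1 at 94.3 to 335 CPM in subcutaneous and 75.6 to 185 CPM in gonadal fat overlapped its blood range of 159 to 178 CPM. Usp18, which removes ISG15 from proteins and dampens the receptor, was below 5 CPM in every library.

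The cytosolic RNA sensors moved in opposite directions. RIG-I (Ddx58) and MDA5 (Ifih1) detect viral RNA, and LGP2 (Dhx58) modulates both. Ddx58 (chr4:40203773-40239828, minus strand) was at 55.9, 56.9, 65.5 and 58.6 CPM in blood, at 34.7, 42.5, 31.0 and 32.8 CPM in gonadal fat and at 26.4, 53.5, 38.3 and 30.9 CPM in subcutaneous fat. The groups did not overlap, although the subcutaneous library of mouse 2807 came within 3 CPM of blood. Its log2 fold change was -0.75 (SE 0.20, adjusted p = 0.0165) in gonadal and -0.66 (SE 0.20, adjusted p = 0.0289) in subcutaneous fat. Its gonadal call had an adjusted p of 0.0515 when blood of mouse 2683 was left out. The subcutaneous call was lost with the mouse as a block (adjusted p = 0.0558) and without any of 6 libraries, the blood ones of mice 2771, 2683 and 2668 and the subcutaneous ones of mice 2846, 2771 and 2668 (adjusted p 0.0512 to 0.0790).

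Dhx58 (chr11:100694884-100704271, minus strand) was at 16.3, 11.3, 12.7 and 19.3 CPM in blood. In gonadal fat it was at 5.97, 5.84, 7.66 and 5.73 CPM and in subcutaneous fat at 9.28, 8.24, 9.79 and 8.54 CPM. All 3 groups stood apart from each other, with subcutaneous values between the others. Its decrease in gonadal fat was called under every alternative tried (log2 fold change -1.24, SE 0.24, adjusted p = 0.00298). The decrease in subcutaneous fat (-0.73, SE 0.24, adjusted p = 0.0389) was lost with the block (adjusted p = 0.136) and without the blood libraries of mice 2807, 2683 or 2668 or any subcutaneous library (adjusted p 0.0507 to 0.117).

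Ifih1 (chr2:62595798-62646255, minus strand) went the other way. It was at 18.8, 12.4, 11.6 and 9.43 CPM in blood, at 23.4, 19.9, 29.1 and 19.1 CPM in gonadal fat and at 20.4, 13.6, 23.7 and 15.2 CPM in subcutaneous fat. Gonadal values lay above all blood values by a small margin, and subcutaneous values overlapped blood. The log2 fold change was 0.81 (SE 0.26, adjusted p = 0.0353) in gonadal and 0.48 (SE 0.26, adjusted p = 0.192) in subcutaneous fat. The gonadal call was lost with the block (adjusted p = 0.0693) and without any of 6 libraries, the blood ones of mice 2771, 2683 and 2668 and the gonadal ones of mice 2846, 2807 and 2683 (adjusted p 0.0517 to 0.111). A retained-intron transcript took 25.5% of its reads in gonadal fat, 13.4% in blood and 12.6% in subcutaneous fat. Zbp1, a sensor of left-handed nucleic acids, ranged from 0.736 to 10.5 CPM with no call.

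Isg15 was an effector that was higher in both depots. Its ubiquitin-like product is attached to proteins during antiviral responses, and the gene (chr4:156199424-156200818, minus strand) has a single transcript in the tables. Blood values were 3.21, 1.74, 1.94 and 1.09 CPM. Gonadal values were 15.0, 5.12, 6.24 and 19.0 CPM, and subcutaneous values were 5.09, 6.97, 4.96 and 21.6 CPM. Every fat library exceeded every blood library, and the values within each depot differed by over 3-fold. The log2 fold change was 2.51 (SE 0.60, adjusted p = 0.00927) in gonadal and 2.29 (SE 0.60, adjusted p = 0.0145) in subcutaneous fat. With the block the adjusted p was 0.0540 and 0.0767, and without the subcutaneous library of mouse 2668 the subcutaneous log2 fold change was 1.53. In gonadal fat Isg15 was highest in the libraries of mice 2668 and 2846, where the macrophage marker sums were lowest (809 and 873 CPM, against 2337 and 2394 CPM in the others). In subcutaneous fat it was highest in mouse 2668, which had the lowest macrophage sum (938 CPM) and the highest eosinophil marker sum (4492 CPM). The 7 markers of natural killer and innate lymphoid cells summed highest in the same libraries. In gonadal fat their sums were 1110 and 349 CPM in mice 2668 and 2846, against 324 and 149 CPM. In subcutaneous fat they were 861 CPM in mouse 2668 and 147 to 187 CPM in the others. None of the 6 tested was called in either depot. In gonadal fat 3 of them had a positive and 3 a negative log2 fold change against blood (-2.33 to 3.59), so the markers did not move together. In subcutaneous fat 5 were positive and 1 was negative. The part of these cells in the Isg15 result was not tested.

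Cmpk2, a mitochondrial nucleotide kinase gene that lies next to Rsad2 (Cmpk2 at chr12:26469204-26479837, plus strand, Rsad2 at chr12:26442746-26456452, minus strand), was lower in subcutaneous fat at low counts. It stood at 1.958, 3.85, 4.40 and 1.09 CPM in blood, 0.204, 1.80, 0.903 and 0.305 CPM in gonadal fat and 0, 0.396, 0.434 and 0 CPM in subcutaneous fat. These values rest on 221 reads in blood, 56 in gonadal and 12 in subcutaneous fat. Subcutaneous values lay below all blood values, and gonadal values overlapped them. The log2 fold change was -3.55 (SE 1.095, adjusted p = 0.0307) in subcutaneous and -1.81 (SE 0.99, adjusted p = 0.193) in gonadal fat, where limma-voom called it (-2.41, adjusted p = 0.0396). The call was lost without the blood libraries of mice 2771 or 2683 or the subcutaneous library of mouse 2846 (adjusted p 0.05003 to 0.0828). Rsad2, which encodes viperin, was at 61.7 CPM in the blood library of mouse 2771 and at 2.08 to 3.25 CPM in the other blood libraries, and at 0.609 to 11.9 CPM in fat. It did not pass edgeR's test in either depot (adjusted p = 0.372 and 0.119). DESeq2 called it in subcutaneous fat (log2 fold change -2.79, adjusted p = 0.0273).

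The Ifit genes, whose products bind viral RNA ends, were near the limit of these libraries. Ifit1 was at 1.958, 0.188, 1.41 and 0.149 CPM in blood, 2.99, 0.793, 6.75 and 1.83 CPM in gonadal fat and 0.599, 0.713, 0.434 and 1.25 CPM in subcutaneous fat. The groups overlapped, and 3 reads are worth 0.126 to 0.685 CPM depending on the library. Its log2 fold change was 1.74 (SE 0.91, adjusted p = 0.174) in gonadal and -0.28 (SE 0.92, adjusted p = 0.848) in subcutaneous fat, and the subcutaneous sign turned under 4 alternatives. limma-voom with sample weights called the gonadal difference (2.28, adjusted p = 0.0344). Ifit2 and Ifit3 stayed below 2.5 CPM in all libraries. The estimated reads of Ifit1 were whole numbers in every library. Those of Ifit3 were fractional in several, so the division of its reads with similar genes is uncertain.

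The other effectors did not pass edgeR's test. The GTPase genes Mx1 and Mx2, which block viral entry and replication, ranged from 0 to 9.58 CPM with overlapping groups, and the annotation lists Mx2 as a polymorphic pseudogene. Parp14, an ADP-ribosyltransferase gene, was steady at 79.8 to 124 CPM. All its subcutaneous values lay above blood, but the difference was small (log2 fold change 0.28, SE 0.13, adjusted p = 0.136). Trim30a (19.4 to 39.8 CPM), Ifi35 (11.2 to 28.3 CPM) and the exonuclease gene Isg20 (2.43 to 11.7 CPM) overlapped between groups. Xaf1, Rtp4 and Ifi27l2a were below 11 CPM everywhere.

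Among the oligoadenylate synthetases, which make the messenger that activates RNase L, Oas2 alone was called by edgeR. Oas2 (chr5:120730333-120749853, minus strand) was at 1.13, 0.376, 0.629 and 0.447 CPM in blood, at 0.611, 10.95, 7.19 and 2.62 CPM in gonadal fat and at 29.4, 5.78, 15.1 and 5.004 CPM in subcutaneous fat. Every subcutaneous library exceeded blood, whereas the gonadal library of mouse 2846 lay within the blood range. The log2 fold change was 4.40 (SE 0.88, adjusted p = 0.00381) in subcutaneous fat, called under every alternative, and 3.77 without the library of mouse 2846. In gonadal fat it was 3.05 (SE 0.84, adjusted p = 0.0182), 2.40 without the library of mouse 2807. The gonadal call was lost with the block (adjusted p = 0.0554) and without the blood libraries of mice 2771, 2683 or 2668 or the gonadal library of mouse 2807 (adjusted p 0.0515 to 0.0579).

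Oas2 stood highest in libraries rich in markers of macrophages, of plasmacytoid dendritic cells and of fibroblasts and progenitors. In subcutaneous fat the libraries of mice 2846 and 2771 had macrophage sums of 2503 and 3182 CPM, and those of mice 2807 and 2668, with less Oas2, had 1592 and 938 CPM. In gonadal fat the libraries of mice 2807 and 2683, with the most Oas2, had sums of 2337 and 2394 CPM, and the others had 873 and 809 CPM. The 6 plasmacytoid dendritic cell markers, which include the member Bst2, summed highest in the same libraries. In subcutaneous fat their sums were 164 and 143 CPM in mice 2846 and 2771, against 45.7 and 25.9 CPM. In gonadal fat they were 84.4 and 91.2 CPM in mice 2807 and 2683, against 42.1 and 31.4 CPM. Of these 6 markers 3 entered the test. In the subcutaneous library of mouse 2846 Bst2 (2.40 CPM) and Siglech made up a minor part of the sum, which lay mostly in other genes of the list. The 8 fibroblast and progenitor markers were highest in those libraries as well. In subcutaneous fat they summed to 4139 and 420 CPM in mice 2846 and 2771, against 341 and 255 CPM. In gonadal fat they summed to 493 and 498 CPM in mice 2807 and 2683, against 158.5 and 404 CPM. The part of RNA from any of these cell types in the Oas2 result was not tested. Isg15 did not follow the same order of libraries.

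Relatives of Oas2 differed from it in level or direction. Oas1a was at 0.653, 1.41, 0.786 and 0.298 CPM in blood, 2.31, 2.95, 4.59 and 0.548 CPM in gonadal fat and 0.599, 1.35, 4.40 and 1.40 CPM in subcutaneous fat. The groups overlapped and neither log2 fold change passed (1.72, SE 0.79, adjusted p = 0.126, and 1.33, SE 0.79, adjusted p = 0.231). Oas3 was at 0.653 to 2.10 CPM in blood and 0 to 0.628 CPM in gonadal fat, not called by edgeR and called lower by limma-voom (-2.91, adjusted p = 0.0238). Oasl1 was at 0.890 to 1.68 CPM in blood and 1.097 to 9.19 CPM in gonadal fat (log2 fold change 1.955, SE 0.81, adjusted p = 0.0899), and DESeq2 and limma-voom called it there (adjusted p = 0.0437 and 0.0408). Oasl2 was at 6.94 CPM in the blood library of mouse 2807 and at 15.6 to 16.6 CPM in the other blood libraries. It was at 4.68 to 11.3 CPM in gonadal and 5.23 to 8.09 CPM in subcutaneous fat, with log2 fold changes of -0.97 in both (adjusted p = 0.0607 and 0.0615). DESeq2 called it in both (adjusted p = 0.0384 and 0.0488), as did limma-voom (adjusted p = 0.0129 and 0.0492). Without the blood library of mouse 2807 edgeR called it in both depots (-1.22 in each, adjusted p = 0.0207 and 0.0224). Oas1a has near-copies beside it in the genome, so reads may be shared among them.

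**Figure D3:**
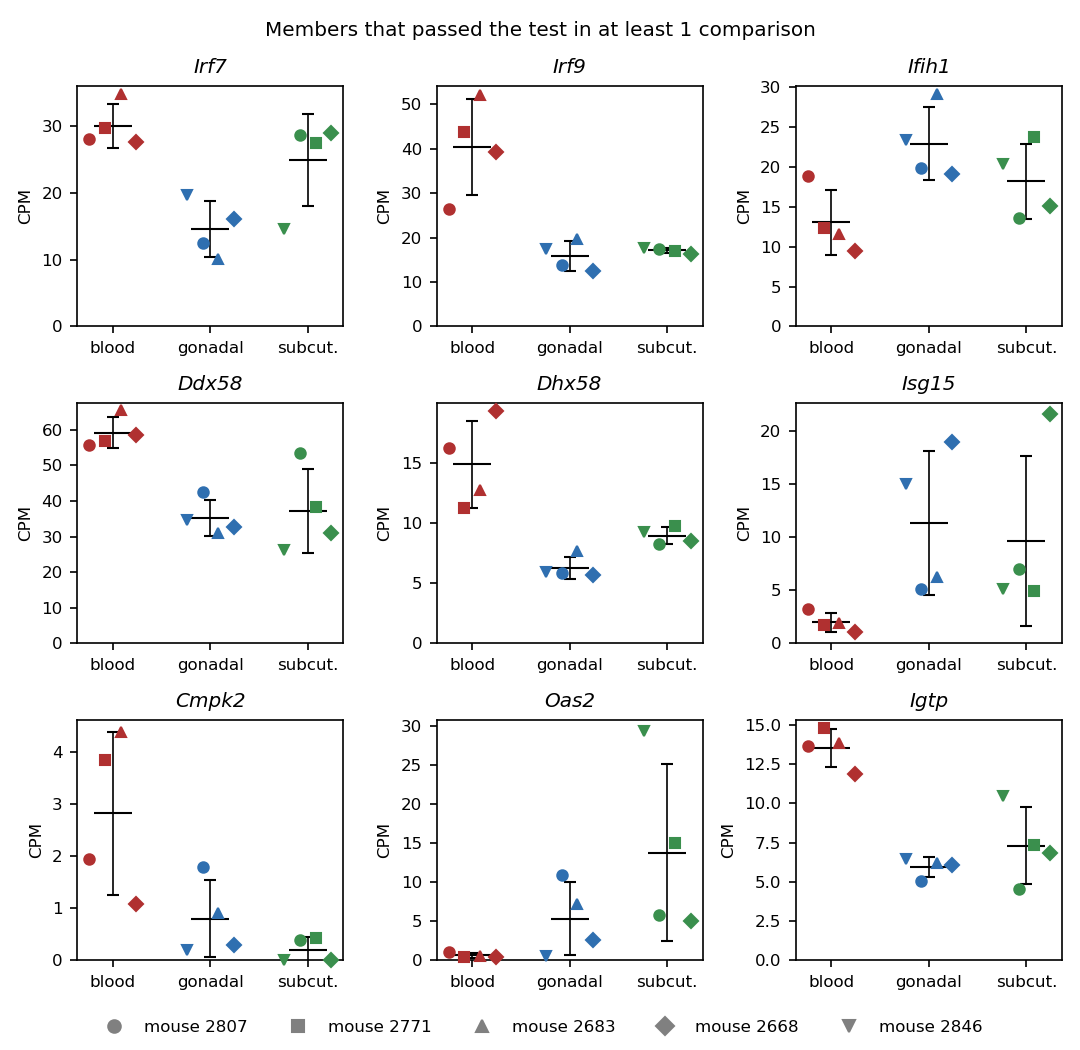
CPM (vertical axis, from 0) of the 9 members that passed the test in at least 1 comparison, by tissue, with a symbol for each mouse and bars for the mean and SD of 4 libraries. Blood lies above both fat groups for Irf9, Ddx58, Dhx58 and Igtp and below them for Isg15, while Oas2 spreads from 0.611 to 29.4 CPM in fat.

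The genes of membrane proteins that restrict viral entry or release did not pass edgeR's test. Ifitm3, which blocks fusion in endosomes, was at 21.7, 6.86, 7.91 and 1.24 CPM in blood, 18.9, 19.4, 34.0 and 7.80 CPM in gonadal fat and 43.1, 14.5, 24.96 and 5.81 CPM in subcutaneous fat. In each tissue mouse 2668 had the lowest value, and the groups overlapped (log2 fold change 1.09, SE 0.76, adjusted p = 0.317, and 1.21, SE 0.77, adjusted p = 0.263). Ifitm2 had the same lowest mouse, at 4.52, 5.36 and 8.17 CPM in blood, gonadal and subcutaneous fat. Bst2, or tetherin, which holds budding virus at the cell surface and is also a marker of plasmacytoid dendritic cells, was at 1.13, 2.11, 1.52 and 2.73 CPM in blood. It was at 2.65, 7.35, 5.03 and 4.02 CPM in gonadal and 2.40, 2.54, 4.77 and 2.28 CPM in subcutaneous fat. The lowest gonadal value fell within the blood range. Its log2 fold change was 1.34 (SE 0.48, adjusted p = 0.0551) in gonadal fat, where DESeq2 (adjusted p = 0.0170) and limma-voom (adjusted p = 0.0330) called it, and 0.69 (SE 0.48, adjusted p = 0.312) in subcutaneous fat. Siglech, another marker of plasmacytoid dendritic cells, was at 0 to 0.0496 CPM in blood, 1.02 to 10.8 CPM in gonadal and 3.02 to 42.6 CPM in subcutaneous fat.

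Of the interferon-inducible GTPases, which act on vacuoles of intracellular pathogens, Igtp was the member that fell. Igtp (chr11:58199556-58207591, plus strand) was at 13.7, 14.8, 13.8 and 11.9 CPM in blood, at 6.45, 5.04, 6.204 and 6.09 CPM in gonadal fat and at 10.5, 4.52, 7.37 and 6.84 CPM in subcutaneous fat. No fat value reached the blood range. Its log2 fold change was -1.19 (SE 0.27, adjusted p = 0.00749) in gonadal fat, called under every alternative, and -0.91 (SE 0.27, adjusted p = 0.0274) in subcutaneous fat. The subcutaneous call was lost without the blood libraries of mice 2771 or 2683 or the subcutaneous libraries of mice 2807 or 2668 (adjusted p 0.0562 to 0.0741). Igtp overlaps Irgm2 on the same strand, with means of 148 and 260 reads per library, and Irgm2, itself a GTPase gene of this class, was also lower, so the division of shared reads is uncertain.

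The guanylate-binding protein genes set the blood library of mouse 2807 apart. Gbp3 was at 40.9 CPM there and at 3.67 to 7.19 CPM in the other blood libraries, Gbp2 at 43.5 against 14.6 to 18.4 CPM, Gbp7 at 56.8 against 40.3 to 41.7 CPM, and Ifi47 at 8.78 against 1.55 to 2.78 CPM. The same library had the highest sums of monocyte, macrophage, B cell and T cell markers in blood. Gbp3 did not pass edgeR's test with all libraries (log2 fold change 0.52, adjusted p = 0.593, and 0.46, adjusted p = 0.633), and limma-voom, which weights samples, called it higher in gonadal fat (1.35, adjusted p = 0.0272). With mouse 2807 left out of blood, edgeR called it higher in gonadal fat (1.85, adjusted p = 0.00511) and in subcutaneous fat (1.79, adjusted p = 0.00652). Irgm1, at 3.05 to 12 CPM, was not called in either depot by edgeR and was called lower in gonadal fat by limma-voom (-0.79, adjusted p = 0.0465). Gbp2, Gbp3 and Gbp7 are related genes, and some reads may be shared among them.

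No member was called between the depots by edgeR (subcutaneous minus gonadal, background 0.00651%), and DESeq2 and limma-voom called none either. At an unadjusted p under 0.05 there were 3 of the 38 tested members, against 1234 of all 15367 genes tested. The largest differences among members were 3.64 for Rtp4 (SE 1.42, adjusted p = 0.555) and -2.02 for Ifit1 (SE 0.94, adjusted p = 0.619) on the log2 scale. Of the members, Dhx58 alone had depots that did not overlap, higher in subcutaneous fat (0.51, SE 0.24, adjusted p = 0.627), and 1.69% of all genes had depots that do not overlap in that direction.

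As a mean over the 39 members, log2(CPM + 1) was 2.85 ± 0.25 (SD, n = 4) in blood, 2.88 ± 0.30 in gonadal and 3.01 ± 0.28 in subcutaneous fat. These means differ by less than their SD. The spread lay between libraries of a tissue. Mouse 2668 had the lowest mean in blood (2.47, others 2.94 to 3.02), gonadal fat (2.51, others 2.84 to 3.22) and subcutaneous fat (2.75, others 2.79 to 3.26). It held the lowest value of 20, 22 and 12 of the 38 tested members in those tissues, a tie being counted for 1 library. In subcutaneous fat the libraries of mice 2846 and 2807 came close, with the lowest value of 11 members each. In gonadal and subcutaneous fat the library of mouse 2668 had the lowest macrophage and monocyte sums and the highest eosinophil sum (4805 and 4492 CPM). In blood its monocyte sum (111 CPM) was lowest, while its macrophage and eosinophil sums were not at the extreme. The gonadal library of mouse 2683 held the highest value of 20 members and the lowest eosinophil sum of that depot (1729 CPM). The part of cell makeup in these levels was not tested.

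**Figure D4:**
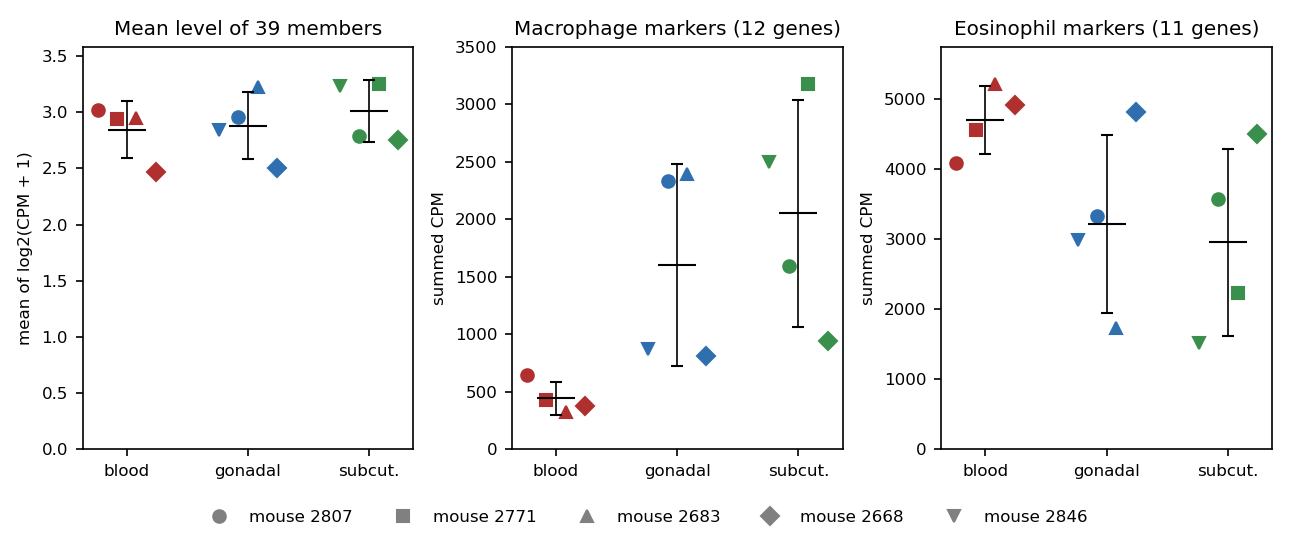
Mean log2(CPM + 1) of the 39 members (left), summed CPM of 12 macrophage markers (middle) and summed CPM of 11 eosinophil markers (right) by tissue, with a symbol for each mouse and bars for the mean and SD of 4 libraries. Mouse 2668 (diamonds) has the lowest member mean in each tissue, at 2.47, 2.51 and 2.75, and in fat the lowest macrophage and highest eosinophil sums.

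The rest of the pathway was read from 144 further genes on 8 lists. Interferon genes themselves were almost silent. Of 13 ligand genes, none had a read in blood, 9 had none in any library, and none entered the test. Ifnb1, a type I interferon made early in infection, was at 0.747, 1.18 and 0.305 CPM in the gonadal libraries of mice 2846, 2683 and 2668 and at 0 in all others. With 0 reads, a library allows up to 3 reads, or 0.126 to 0.685 CPM.

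Of the 122 further genes tested, 15 were higher and 30 lower in gonadal fat (36.9%, background 27.0%), and 19 were higher and 26 lower in subcutaneous fat (36.9%, background 26.8%). Their median log2 fold changes were 0.004 and -0.002, so the lists moved in both directions. Leaving out each library in turn kept 24 of the 45 gonadal calls and 21 of the 45 subcutaneous calls in all 12 fits.

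Receptor and kinase genes split as well. Of 10 tested, 2 were higher and 5 lower in gonadal fat, and 2 were higher and 2 lower in subcutaneous fat. The receptor chain gene Ifnar1 was higher in both, at 89.5 ± 5.5 CPM in blood, 152 ± 9.8 CPM in gonadal and 141 ± 36 CPM in subcutaneous fat (log2 fold changes 0.76, SE 0.17, adjusted p = 0.00726, and 0.66, SE 0.17, adjusted p = 0.0154, lost without the blood library of mouse 2668). Il10rb, a chain shared by the receptors of interferon lambda and interleukin 10, rose from 40.4 ± 5.8 CPM to 85.3 ± 13 and 76.2 ± 9.8 CPM (adjusted p = 0.00054 and 0.00162). Ifngr2, a chain of the interferon gamma receptor, was lower in both depots (-0.72, adjusted p = 0.0262, and -0.85, adjusted p = 0.0130). Its gonadal call was lost without any of 4 libraries, the blood ones of mice 2771 and 2683 and the gonadal ones of mice 2807 and 2668. Of the kinase genes, Jak1 was lower in gonadal fat (-0.67, adjusted p = 0.0270, lost with the block and without any of 6 libraries) and Jak2 in subcutaneous fat (-0.61, adjusted p = 0.0152, lost without the blood library of mouse 2683).

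A list of 6 genes held the other interferon regulatory factors and Irf2bp2, which is not itself such a factor. It gave 2 higher and 2 lower in gonadal fat and 1 higher and 2 lower in subcutaneous fat. Irf2bp2 was the 1 higher gene in subcutaneous fat and was higher in gonadal fat as well. Irf2bp2, a corepressor that binds IRF2, was at 115 ± 15 CPM in blood, 767 ± 153 CPM in gonadal and 761 ± 277 CPM in subcutaneous fat. Its log2 fold changes were 2.73 (SE 0.28, adjusted p = 3.41e-05) and 2.72 (SE 0.28, adjusted p = 3.80e-05), and every fat library exceeded every blood library. Irf5 was higher in gonadal fat (0.97, adjusted p = 0.0136). Irf2 and Irf3 were lower in both depots, with log2 fold changes of -0.43 and -0.55 in gonadal fat (adjusted p = 0.0233 and 0.0280) and -0.59 and -0.60 in subcutaneous fat (adjusted p = 0.00518 and 0.0184). With the block, the gonadal calls of Irf2 and Irf3 were lost (adjusted p = 0.0615 and 0.0840). Without any of several libraries they were lost too, 4 for Irf2 and 5 for Irf3, and the subcutaneous call of Irf3 was lost without the blood library of mouse 2668.

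Upstream sensing genes gave 2 higher and 1 lower of 11 in gonadal fat and 1 lower in subcutaneous fat. Tmem173, which encodes the DNA-sensing adaptor STING, was at 54.8 ± 3.8 CPM in blood, 17.1 ± 3.8 CPM in gonadal and 23.6 ± 9.4 CPM in subcutaneous fat. The log2 fold changes were -1.68 (SE 0.26, adjusted p = 0.000784) and -1.21 (SE 0.26, adjusted p = 0.00572), and the groups did not overlap. Unc93b1, the chaperone of endosomal Toll-like receptors, was higher in gonadal fat (1.66, SE 0.48, adjusted p = 0.0232), a call lost without the blood libraries of mice 2771, 2683 or 2668 or the gonadal library of mouse 2683 (1.08 without the last). Of 6 negative feedback genes, Socs3 was higher and the phosphatase gene Ptpn6 lower in each depot. Ptpn6 was at 706 ± 80 CPM in blood, 337 ± 58 CPM in gonadal and 339 ± 122 CPM in subcutaneous fat (adjusted p = 0.00827 and 0.00887). Socs3 was at 24.3 ± 5.7, 63.7 ± 31 and 119 ± 78 CPM, called in subcutaneous fat (2.28, adjusted p = 0.00647). Its gonadal call (1.39, adjusted p = 0.0498) was lost with the block (adjusted p = 0.0978) and without any of 9 libraries. Socs3 also belongs to the list of 18 early responses to tissue dissociation, of which 17 were called higher in gonadal and 18 in subcutaneous fat. The part of digestion in its increase was not tested. Socs1, another feedback gene of the list of 6, was at 3.40, 2.73 and 2.89 CPM on average and was not called.

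Of 68 further interferon-stimulated genes tested, 8 were higher and 14 lower in gonadal fat, and 12 were higher and 16 lower in subcutaneous fat. Ifi207, of the interferon-inducible p200 family, had the largest increase among those named, from 2.90 ± 2.6 CPM in blood to 90.8 ± 64 and 128 ± 92 CPM (log2 fold changes 4.98, SE 0.93, adjusted p = 0.00328, and 5.47, SE 0.96, adjusted p = 0.0023, or 5.66 and 6.15 without the blood library of mouse 2807). Its relative Ifi204 rose to 30.4 ± 25 CPM in subcutaneous fat (3.78, adjusted p = 0.00673, and 3.13 without the library of mouse 2846), and both stood highest in the subcutaneous library of mouse 2846. Within each depot Ifi207 was lowest in mouse 2668 (31.3 and 31.2 CPM), where macrophage sums were lowest. Members of the p200 family are near-copies and their reads are uncertain. Ifi205, of the same family, was called in subcutaneous fat (4.27, adjusted p = 0.0372) and lost with the block (adjusted p = 0.171) and without any of 7 libraries. It was at 109 CPM in the subcutaneous library of mouse 2846 and 2.65 to 6.89 CPM in the other subcutaneous libraries, and without that library its log2 fold change was 1.81 (adjusted p = 0.178), against 5.06 when mouse 2807 was left out of blood. Cd274, which encodes PD-L1, and Lgals3bp were higher in both depots. Cd274 was at 24.5 ± 7.8 CPM in blood, 76.5 ± 43 CPM in gonadal and 75.3 ± 27 CPM in subcutaneous fat (1.65, adjusted p = 0.00813, and 1.63, adjusted p = 0.00872). Lgals3bp was at 4.28 ± 3.1, 21.2 ± 7.4 and 35.0 ± 25 CPM (2.31, adjusted p = 0.00928, and 3.04, adjusted p = 0.0025). Leaving out mouse 2807 from blood gave 2.93 and 3.66 for Lgals3bp, and leaving out mouse 2771 from subcutaneous fat, at 71.6 CPM, gave 2.41 there. Slfn2, a schlafen gene that keeps lymphocytes quiescent, was at 743 ± 105 CPM in blood, 216 ± 55 CPM in gonadal and 190 ± 36 CPM in subcutaneous fat (adjusted p = 0.000117 and 6.03e-05), and Slfn1 fell by 3.66 and 2.02 on the log2 scale (adjusted p = 0.000161 and 0.00488). Of the other schlafen genes tested, edgeR called Slfn4 lower in both depots (-4.93, adjusted p = 0.00231, and -4.05, adjusted p = 0.00601), Slfn8 lower in gonadal fat (-0.66, adjusted p = 0.0354), and Slfn3, Slfn5 and Slfn9 in neither. Trim30b fell by 2.49 and 2.48 on the log2 scale (adjusted p = 0.00145 and 0.00162).

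The other GTPase genes gave 2 lower of 10 in gonadal fat, and 2 higher and 1 lower in subcutaneous fat. Irgm2 was at 29.5 ± 9.4 CPM in blood, 5.32 ± 2.0 CPM in gonadal and 8.91 ± 2.2 CPM in subcutaneous fat (log2 fold changes -2.47, adjusted p = 0.00044, and -1.72, adjusted p = 0.00377). Between the depots 8 of these 10 had an unadjusted p under 0.05, where 1234 of all 15367 genes tested did, and edgeR called none. DESeq2 called 6 genes of the 8 lists, 5 higher and 1 lower in subcutaneous fat, among them the GTPase genes Gbp4, Gbp8, Iigp1 and Tgtp2. The share of all genes that DESeq2 called between the depots is not given here, so nothing is read from its count. The summed level of 8 T cell markers was 1.77 to 5.48 CPM in gonadal and 28.0 to 242 CPM in subcutaneous fat. Its part in the depot differences of the GTPase genes was not tested.

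Of 11 antigen presentation genes driven by interferon gamma, 5 were lower in gonadal fat, and 1 was higher and 3 lower in subcutaneous fat. Tap1, a peptide transporter gene, was at 90.3 ± 3.4 CPM in blood, 43.5 ± 3.9 CPM in gonadal and 49.9 ± 12 CPM in subcutaneous fat (-1.05, adjusted p = 0.00091, and -0.85, adjusted p = 0.00347). The proteasome subunit gene Psmb9 was lower in gonadal fat (-1.40, adjusted p = 0.00441), as was B2m, the light chain of MHC class I (-0.73, adjusted p = 0.0152). Both were also called in subcutaneous fat (-0.85, adjusted p = 0.0438, and -0.57, adjusted p = 0.0429). Those 2 calls were lost with the block (adjusted p = 0.127 and 0.0948) and without any of 8 libraries for Psmb9 or 9 for B2m. Nlrc5, the activator of MHC class I genes, was higher in subcutaneous fat (41.1 ± 29 against 10.9 ± 4.4 CPM, 1.92, SE 0.45, adjusted p = 0.00875), or 1.28 without the library of mouse 2771, which stood at 82.9 CPM.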

How the data were processed

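The 12 RNA libraries of sorted eosinophils, from 5 mice, were made with a stranded total RNA kit for low input, per the labels' protocols. Salmon 1.6.0 on the mm10 build, Trim Galore 0.6.4 and DESeq2 1.30.1 are the tools listed, per the submitters' processing notes. Annotation release and strand setting are not given in the sources used here. The authors deposited estimated counts per transcript, which need not be whole, and TPM values, per the file headers.

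Counts were summed per gene with GENCODE M21 (GRCm38), which matched 139791 of 140992 transcripts. The other 1201 held 0.351% to 0.538% of a library's reads and stayed out. Sums were rounded and fitted by quasi-likelihood (edgeR 4.0.16, R 4.3.3, robust, TMM, filterByExpr by group) with all 12 libraries and group as the term. The common biological coefficient of variation was 0.545. SE is the size of the log2 fold change divided by the square root of F. CPM values use TMM-scaled library sizes. Low depth widens the error of low genes, and a floor of 3 reads covers counting error only. Promoter windows come from RefSeq.

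Members and lists were chosen with earlier results of these data known. Full values are given for members called in any comparison and for Irf7, Stat2, Irf9, Isg15, Ifit1, Bst2, Ifih1, Oas1a and Ifitm3. From the other lists, up to 3 called genes per direction with at least 20 CPM in the higher group are named, by size of change (1 such gene is not reported here), and single other genes were named after their values were seen. The other pathway lists held 1 symbol, Mnda, without a match.

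Mouse numbers mark the animal, so same-numbered libraries are paired. After group means were removed, the 9 such pairs correlated at -0.111 to 0.358 (mean 0.0842, against -0.0188 for different mice). Alternatives were mouse as a block, DESeq2 1.42.0, limma-voom (limma 3.58.1) with sample weights, RLE factors, no filter, the 2 groups compared alone and each library left out. Leaving out 2 libraries together was chosen after seeing the data.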

Additional observations from a re-analysis of the deposited data

Results flagged for a closer look

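In 15 of 117 groups of 4 libraries, 1 library stood far from the other 3 by Dixon's test at the 95% level. Chance gives about 1 in 20. In blood, mouse 2807 stood apart for Gbp2 (43.5 CPM, next 18.4), Gbp3 (40.9 CPM, next 7.19), Gbp7 (56.8 CPM, next 41.7), Ifi47 (8.78 CPM, next 2.78) and, downward, Oasl2 (6.94 CPM, next 15.6). Mouse 2771 stood apart in blood for Rsad2 (61.7 CPM, next 3.25), a library that also held 8352 CPM of erythroid markers against 17.7 to 144 CPM in the other blood libraries. The blood library of mouse 2668 had the lowest mean level of the members (2.47, next 2.94).

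In gonadal fat, mouse 2683 stood above the others for Dhx58 (7.66 CPM, next 5.97). In subcutaneous fat, mouse 2846 stood apart for Irf7 (14.7 CPM, next 27.5), Mx2 (9.58 CPM, next 0.792) and Oasl1 (8.98 CPM, next 1.49). Mouse 2771 did for Bst2 (4.77 CPM, next 2.54), Gbp3 (31.0 CPM, next 17.0) and Irgm1 (11.1 CPM, next 5.59), and mouse 2668 for Isg15 (21.6 CPM, next 6.97).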

How the results depend on the processing

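With mouse as a block, 4 members were called in gonadal fat and 4 in subcutaneous fat, against 8 and 7 without it. limma-voom with sample weights called 15 members in gonadal fat (6 higher, 9 lower). Fitting blood and subcutaneous fat alone called 4 there. Leaving out 1 library at a time gave 5 to 10 members in gonadal fat (5 without blood mouse 2683) and 3 to 8 in subcutaneous fat (3 without that same library, 4 without blood mouse 2771, subcutaneous mouse 2846 or subcutaneous mouse 2668). For the 122 further pathway genes the range was 25 to 49 in gonadal fat (25 without blood mouse 2683, 28 without blood mouse 2771) and 28 to 46 in subcutaneous fat (28 without blood mouse 2683 or blood mouse 2668), against 45 in each. DESeq2 called 6 of these between the depots, where its share of all genes is not given here, and edgeR called 0. At an unadjusted p under 0.05 edgeR gave 21 of the 122, against 1234 of all 15367 genes tested.

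Signs turned in subcutaneous fat for Stat2 (-0.22 to 0.017 with 1 library left out, above 0 when subcutaneous mouse 2668 was) and Ifit1 (-0.66 to 0.35, above 0 when blood mouse 2807 was). Ifit1 also moved to 0.48 with the block, 0.78 with limma-voom and 0.47 without blood mouse 2807 and subcutaneous mouse 2846 together. Without the last 2 libraries, 10 members were called in gonadal and 6 in subcutaneous fat. The difference in mean member level between gonadal fat and blood (0.04) fell below 0 without gonadal mouse 2683 (-0.08) or blood mouse 2668 (-0.09). The causes were not tested. Of the remaining results 472 single-gene values and 145 counts or mean levels kept their direction and side of the threshold or moved little, 49 single-gene calls were lost and 6 gained. Depth limits the low members most in the library with 4379954 reads, where 3 reads are worth 0.685 CPM.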
